A study of Danio rerio with 46 samples.

Results

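The 5 array rows described here measure globin genes of the zebrafish, out of 31475 rows on the array. Of these, 4 are embryonic globins, namely the alpha-type genes hbae1 and hbae3 and the beta-type genes hbbe1.1 and hbbe2, and 1 is the adult beta globin hbba2, listed in the table as zgc:92880. They were chosen by their log2 signals in juvenile trunks, which differed strongly between heat-exposed and control fish, so their trunk values are a description and carry no test. Their values in the gonads of adults took no part in the choice and were tested.

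Zebrafish were held at 36 °C in the heat groups and at 28 °C in the control groups for 14 days, between 18 and 32 days post fertilization (dpf), and all were then reared at 28 °C. Total RNA was amplified and measured on 46 single-colour arrays. Trunks of juveniles of unknown sex were sampled at 37 dpf, 10 from heat-exposed and 8 from control fish. Gonads of adults were sampled at 90 dpf, with 10 heat-exposed and 10 control testes and 4 heat-exposed and 4 control ovaries. Heat-exposed ovaries 2 and 4 stood apart from the other ovaries, and results in ovaries are given with and without them. The labels name no strain, and the arrays of a group are described as biological replicates. The series is titled as a study of the gonadal transcriptome in response to heat.

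Hemoglobin, the oxygen carrier of red blood cells, is built from paired alpha-type and beta-type globin chains with a heme group in each chain. Vertebrates make embryonic globins in the first red cells and replace them with adult globins as later generations of red cells take over, a change known as globin switching. In zebrafish the red cells keep their nucleus, and the switch takes place over larval and juvenile life. The alpha-type and beta-type genes lie interleaved in clusters, and the NCBI RefSeq table of assembly GRCz12tu, used for names and neighbours only, lists 12 globin genes in the major cluster and 4 in the minor one. In its order the major cluster runs hbaa2, hbba2, ba1l, hbaa1, hbba1, si:ch211-5k11.8, hbbe1.1, hbae1.1, hbbe1.2, hbae1.2, hbae1.3, hbae3, so that the adult genes stand at one end and the embryonic genes at the other. The minor cluster runs hbae4, hbbe3, hbbe2, hbae5. The row hbae1 carries the current symbol hbae1.1, so 4 of the members lie in the major cluster and hbbe2 lies in the minor one.

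All 4 embryonic globins had higher signals in heat-exposed trunks, by 2.69 to 4.95 on the log2 scale, and the adult beta globin hbba2 had a lower one, with a difference of −2.87. Values are log2 signals throughout, so a difference of 1 is a doubling, and levels of different rows are not set against each other because each row has its own probes. The highest value of the table was 15.89, and signals near it, as of hbae1, hbbe1.1 and hbbe2 in many heat-exposed trunks, may be compressed, so that their folds are uncertain. Of all rows on the array, limma called 8.59% higher and 5.96% lower after heat (adjusted p under 0.05), and 1.12% had groups of arrays that did not overlap. Of the 5 members, 2 had groups that did not overlap, and nothing is read from that count because the rule used this contrast. In whole trunks, fewer cells of a type and less RNA per cell cannot be told apart.

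Among the alpha-type genes, hbae1 had a lowest, median and highest signal of 13.30, 15.07 and 15.32 in heat-exposed trunks, against 10.44, 11.39 and 12.92 in control trunks. Every heat-exposed trunk lay above every control trunk, and the means of 14.61 ± 0.82 (SD, n = 10) and 11.60 ± 1.01 (SD, n = 8) differed by 3.01, or 8.08-fold. hbae3 had signals of 15.03, 10.36, 12.96, 12.79, 13.10, 7.67, 6.74, 7.51, 9.99 and 14.45 in heat-exposed trunks 1 to 10. In control trunks hbae3 ran between 5.46 and 6.74 with a median of 6.02, so that 9 of 10 heat-exposed trunks lay above all of them. The control trunks lay close together for this gene and the heat-exposed trunks spread over a range wider than that of any other member. The means of hbae3 were 11.06 ± 3.03 (SD, n = 10) in heat-exposed and 6.11 ± 0.50 (SD, n = 8) in control trunks. Its difference of 4.95, or 30.9-fold, was the largest increase of the 31475 rows. This rank may depend on the dim control signals of hbae3, as the other embryonic members had brighter control signals and came near the top of the scale.

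Among the beta-type genes of the embryo, hbbe1.1 had a lowest, median and highest signal of 13.47, 14.80 and 15.35 in heat-exposed trunks, against 10.41, 11.67 and 13.49 in control trunks. Of the heat-exposed trunks, 8 of 10 lay above all control trunks, and the means of 14.53 ± 0.75 (SD, n = 10) and 11.84 ± 0.99 (SD, n = 8) differed by 2.69, or 6.44-fold. hbbe2, the member from the minor cluster, had 13.34, 15.17 and 15.42 in heat-exposed trunks, against 10.04, 11.18 and 12.40 in control trunks. The groups of hbbe2 did not overlap, and its means of 14.77 ± 0.74 (SD, n = 10) and 11.19 ± 0.88 (SD, n = 8) differed by 3.59, or 12-fold. Higher signals were therefore seen for members of both clusters, with hbbe2 alone standing for the minor one. Its neighbours hbae4 and hbbe3, which are no members, differed by 0.25 (adjusted p = 0.507 in limma) and 0.41 (adjusted p = 0.451).

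The adult beta globin hbba2 (zgc:92880) had a lowest, median and highest signal of 6.05, 8.40 and 10.44 in heat-exposed trunks, against 10.37, 11.32 and 12.15 in control trunks. Of the heat-exposed trunks, 9 of 10 lay below all control trunks, and only heat-exposed trunk 6 reached into the control range. The means were 8.45 ± 1.3 (SD, n = 10) and 11.32 ± 0.51 (SD, n = 8), a difference of −2.87, or 7.3-fold lower after heat.

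**Figure D1:**
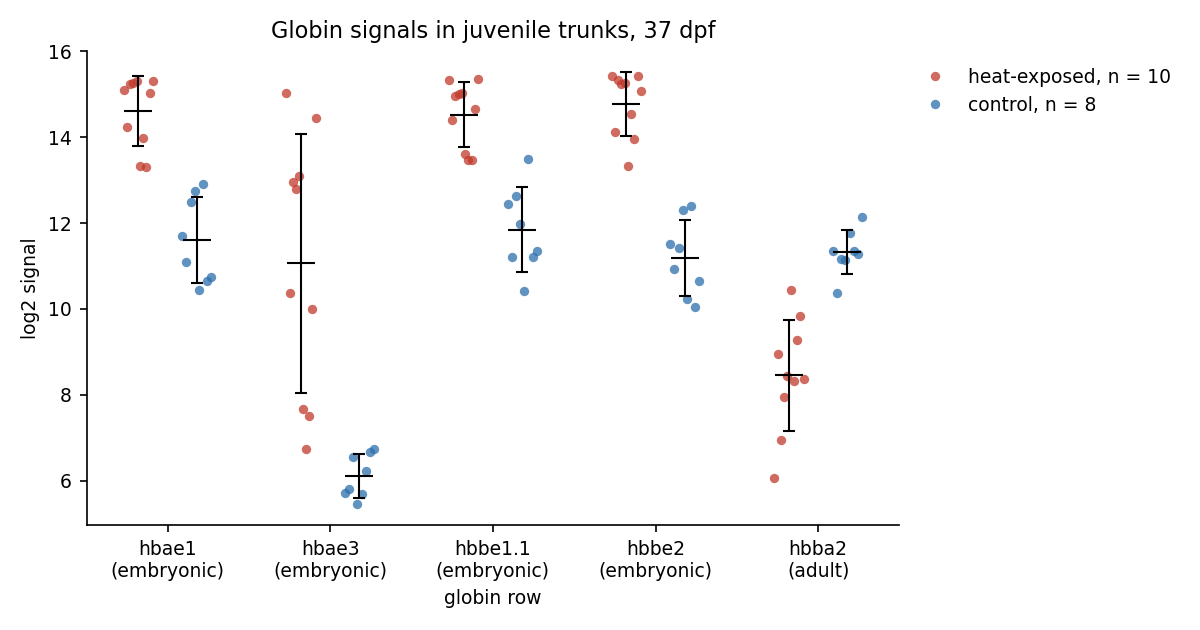
Log2 signal of the 4 embryonic globin rows and of the adult beta globin hbba2 in juvenile trunks at 37 dpf. Each dot is 1 array, red for the 10 heat-exposed and blue for the 8 control trunks, with the mean as a bar and ± 1 SD as whiskers. The 4 embryonic rows sit higher and hbba2 lower in heat-exposed trunks, and hbae3 spans 6.74 to 15.03 within the heat-exposed group.

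The balance of embryonic over adult globin was taken in each trunk as the mean log2 signal of the 4 embryonic rows minus that of hbba2, a difference between rows that is read only across arrays. It was 5.29 ± 2.37 (SD, n = 10) in heat-exposed trunks, with a range of 1.55 to 9.17, and −1.14 ± 0.92 (SD, n = 8) in control trunks, with a range of −2.57 to −0.10. The embryonic mean itself lay between 11.99 and 15.22 in heat-exposed trunks and between 9.19 and 11.26 in control trunks. Heat-exposed trunk 1 stood farthest from the control trunks on both axes, with an embryonic mean of 15.22 and hbba2 at 6.05. On the axis of the embryonic mean, heat-exposed trunks 6, 7 and 8 stood nearest to the control trunks, at 11.99, 12.18 and 12.06. Their hbba2 signals were 10.44, 8.31 and 9.27. By hbba2, trunk 6 was again nearest, followed by trunk 9 at 9.83, and trunk 7 lay below the heat-exposed median of 8.40. The heat-exposed group was thus spread along a scale and not gathered at 1 level. Of the 4 rows in the embryonic mean, hbae3 weighed most on this spread, with 6.74 to 15.03 in heat-exposed trunks. The ranges of hbae1, hbbe1.1 and hbbe2 were narrower, at 13.30 to 15.32, 13.47 to 15.35 and 13.34 to 15.42.

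**Figure D2:**
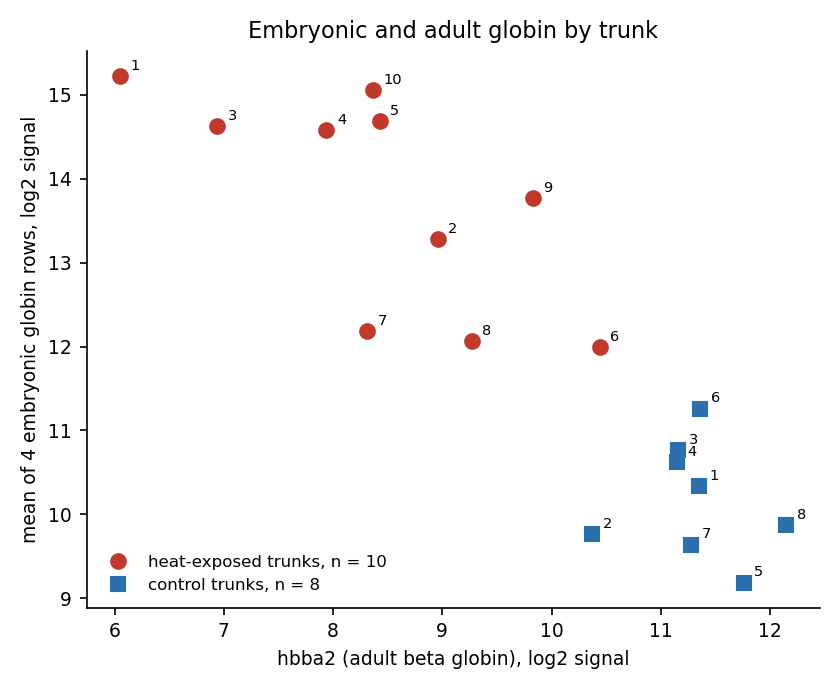
Each point is 1 trunk, labelled with its replicate number, placed by its hbba2 log2 signal on the horizontal axis and by the mean log2 signal of the 4 embryonic rows on the vertical axis. The 10 heat-exposed trunks (circles) have an embryonic mean of at least 11.99 and the 8 control trunks (squares) of at most 11.26, with trunk 1 at the far upper left.

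The spread between arrays inside a group was not used to choose the members, and relations between them were tested there. In all 60 relations were computed over 4 groups, with permutation p-values adjusted by Benjamini-Hochberg over the 60, and 8 passed by Pearson's r and 7 by Spearman's rho. The firmest was that of hbae3, an alpha-type gene, with hbbe1.1, a beta-type gene of the same cluster, over the 10 heat-exposed trunks. Its Pearson's r was 0.98 and its Spearman's rho 0.96, with permutation p adjusted to 0.0024 and 0.003, and it was the only one of the 60 to pass without the 2 arrays farthest from the median (r = 0.96, adjusted permutation p = 0.0298, n = 8). The 6 pairs of embryonic genes had an r of 0.75 to 0.98 in heat-exposed trunks, and 4 of them passed. In control trunks the same 6 pairs ran between −0.35 and 0.95, and 2 passed: hbae1 with hbbe2 (r = 0.95, adjusted exact permutation p = 0.00655, n = 8) and hbae1 with hbbe1.1 (r = 0.88, adjusted exact permutation p = 0.037, n = 8). Within heat-exposed trunks the 4 embryonic genes ran opposite to hbba2, with an r of −0.69 to −0.59, and none of these 4 relations passed after adjustment. The pair of hbae3 and hbba2 had r = −0.69 with a permutation p of 0.0257 and an adjusted p of 0.129, and a rho of −0.56 with an adjusted permutation p of 0.453. Whether these relations differ between the heat-exposed and control group was not tested.

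Beyond the members, the array held 8 further rows of erythroid globins. The row si:busm1-118j2.5 is a second row of hbbe1.1, and gave 13.31, 14.96 and 15.66 as lowest, median and highest signal in heat-exposed trunks, against 10.76, 11.63 and 13.52 in control trunks. Its difference of 2.79 lay close to the 2.69 of the first row, and as it measures a member's gene it is given as a description. Of the 7 rows that measure no member's gene, 1 was higher and 1 lower at an adjusted p under 0.05 in limma, and 5 did not pass. The list was drawn up with earlier results of these data known, so its counts are descriptive.

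The row that rose was si:ch211-5k11.2, an embryonic alpha row that matches both hbae1.2 and hbae1.3. Its signals were 12.95, 14.99 and 15.50 in heat-exposed trunks, against 10.54, 11.41 and 12.63 in control trunks, with no overlap. The difference was 2.96 (SE 0.39, adjusted p = 0.000116 in limma). Its values lay close to those of its relative hbae1, with medians of 15.07 and 11.39 and a difference of 3.01. As hbae1 was chosen on this contrast, the p-value is not read as support apart from that choice. The row that fell was si:ch211-5k11.6, named hbaa2 in RefSeq, the adult alpha globin that neighbours hbba2. It had 8.07, 9.74 and 11.56 in heat-exposed trunks, against 11.39, 12.04 and 12.73 in control trunks, with 8 of 10 heat-exposed trunks below all control trunks. The difference was −2.36 (SE 0.42, adjusted p = 0.00139 in limma), or 5.13-fold. The neighbours hbaa2 and hbba2 thus had lower signals together, hbba2 being chosen on this contrast. The other adult rows of the cluster, ba1, ba2 and si:xx-by187g17.1, did not pass.

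The other 5 rows did not pass. The embryonic genes hbae4 (zgc:163057) and hbbe3, neighbours of hbbe2 in the minor cluster, differed by 0.25 (adjusted p = 0.507 in limma) and 0.41 (adjusted p = 0.451). hbbe3 was dim in trunks of both kinds, with means of 5.96 ± 0.80 (SD, n = 10) in heat-exposed and 5.55 ± 0.65 (SD, n = 8) in control trunks. The adult beta globin row ba1 (hbba1) differed by −0.48 (adjusted p = 0.465), ba2 (ba1l or hbba1) by −0.08 (adjusted p = 0.73) and si:xx-by187g17.1 (si:ch211-5k11.8) by −0.16 (adjusted p = 0.31). The last row is an adult alpha globin gene by an older name in RefSeq, and it was added after its values were seen. The rows ba2 and si:xx-by187g17.1 had means of 15.08 to 15.37 over both groups, likewise near the top of the scale. Near-identical globin genes may hybridize to each other's probes, so the value of 1 row is uncertain by its relatives. Of the 5 rows of globins outside red blood cells, mb, cygb1, cygb2, ngb and xgb, none passed. The lowest adjusted p among them was 0.0711, for xgb at −0.65.

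**Figure D3:**
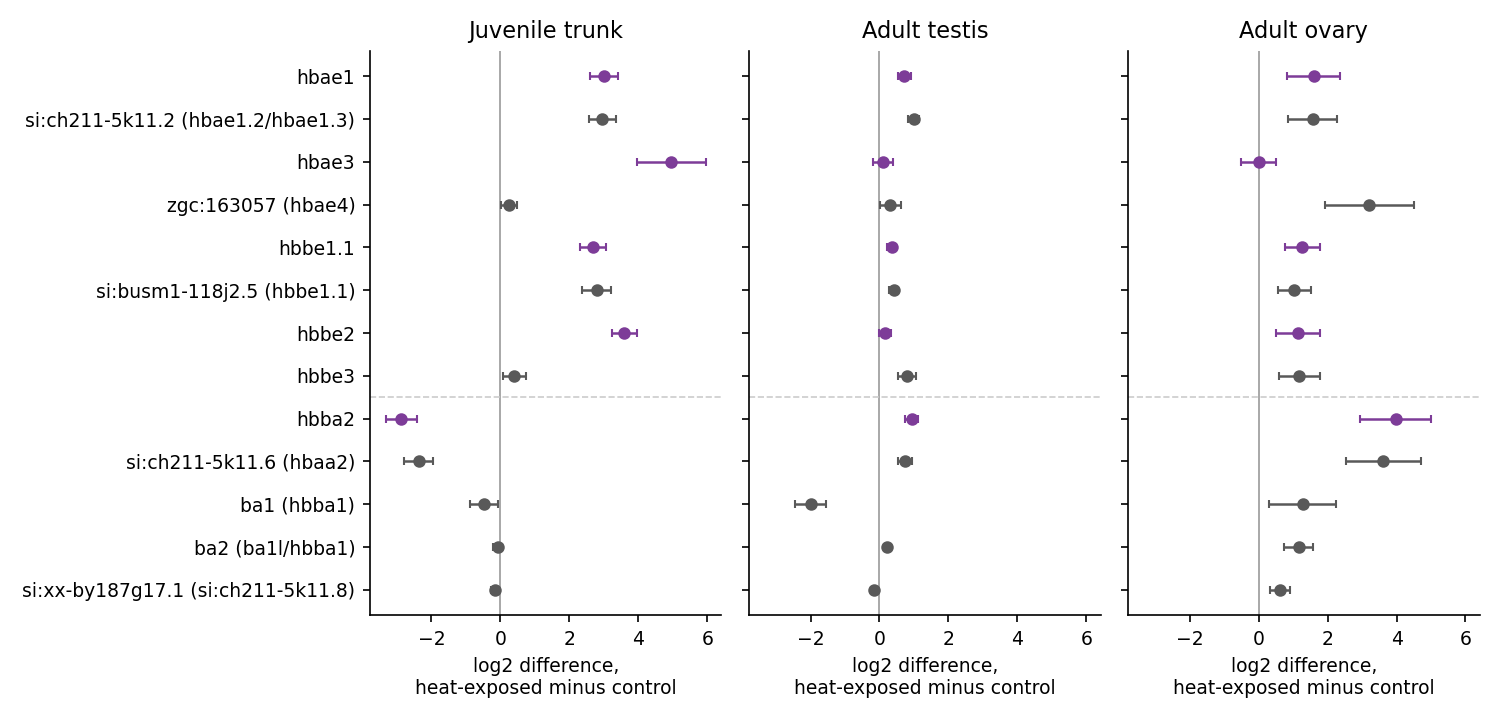
Difference of mean log2 signal, heat-exposed minus control, for the 13 erythroid globin rows in juvenile trunks, adult testes and adult ovaries, with ± 1 SE from limma. Members are purple and other rows grey, and rows above the dashed line are embryonic and those under it adult. In trunks the embryonic members lie between 2.69 and 4.95, hbba2 and hbaa2 (si:ch211-5k11.6) at −2.87 and −2.36, and hbae4 and hbbe3 at 0.25 and 0.41. In testes the members lie between 0.10 and 0.93.

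No marker of the erythrocyte list passed in the same trunks. Of 8 erythrocyte marker rows (slc4a1a, alas2, cahz, epb41b, sptb, rhag, gata1a and blvrb), 0 passed in either direction in limma, with a median difference of −0.06 beside 0.04 over all rows. Their mean was 10.45 ± 0.30 (SD, n = 10) in heat-exposed and 10.55 ± 0.22 (SD, n = 8) in control trunks. slc4a1a, the band 3 anion exchanger of the red cell membrane, averaged 12.38 in heat-exposed and 12.77 in control trunks. Expressed relative to the array's own erythrocyte marker mean, the differences were 3.11 for hbae1, 5.05 for hbae3, 2.78 for hbbe1.1, 3.68 for hbbe2 and −2.77 for hbba2. In trunks, 0 of 10 relations of a member with this marker mean passed.

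Markers of some other cell types did differ between the trunk groups. All 16 oocyte marker rows were lower in limma, with a median difference of −5.30 and a list mean of 6.40 to 9.22 in heat-exposed and 8.94 to 13.70 in control trunks. Of the neural markers 10 of 16 were higher and 1 lower (median 0.94), and of the ionocyte markers 9 of 14 were higher (median 1.67). Over all rows 8.59% were higher and 5.96% lower. Of the endothelial markers 3 of 8 were higher, of muscle 3 of 13 and of kidney 2 of 14, the kidney count lying near that share. By contrast, 0 of 13 liver and 0 of 4 thrombocyte markers passed and 1 of 15 leukocyte markers was lower. The neural mean also moved with the globins among the heat-exposed trunks. It was 12.08, 11.73, 11.79 and 11.64 in heat-exposed trunks 1, 10, 3 and 5, whose embryonic globin means were 15.22, 15.05, 14.62 and 14.68, and 10.84, 10.93 and 10.84 in heat-exposed trunks 6, 7 and 8, whose embryonic globin means were 11.99, 12.18 and 12.06. In heat-exposed trunks 4, 2 and 9 it was 11.29, 11.26 and 11.19, beside embryonic globin means of 14.58, 13.28 and 13.77. Heat-exposed trunks with a high neural mean thus had a high embryonic globin mean, in which hbae3 had the widest spread. The neural mean of control trunks was 10.14 to 11.11. Control trunks 3 and 1 had neural means of 11.11 and 10.94, above heat-exposed trunks 6, 7 and 8. Their embryonic globin means were lower than in those trunks, at 10.77 and 10.34. The ionocyte mean was 8.58 to 10.88 in heat-exposed and 8.24 to 9.88 in control trunks. It was 10.85, 10.88, 10.75 and 10.37 in heat-exposed trunks 1, 10, 3 and 5, and 9.38, 10.03 and 8.58 in heat-exposed trunks 6, 7 and 8. In heat-exposed trunks 4, 2 and 9 the ionocyte mean was 10.13, 10.42 and 10.29. The oocyte mean was 9.22, 7.36, 6.99 and 6.63 in heat-exposed trunks 1, 10, 3 and 5, and 6.55, 6.46 and 6.40 in heat-exposed trunks 6, 7 and 8. In heat-exposed trunks 4, 2 and 9 it was 6.68, 7.42 and 6.60. Trunk 2 stood above trunk 5 for ionocyte and oocyte means, against the order of their embryonic globin means. A higher mean in trunks 1, 10, 3 and 5 than in trunks 6, 7 and 8 was thus not particular to the neural markers. The mean of the rows of heme synthesis and breakdown was lower in trunks 1, 10, 3 and 5 than in trunks 6, 7 and 8. It was 10.10, 10.06, 10.16 and 10.34 in heat-exposed trunks 1, 10, 3 and 5, and 10.67, 10.58 and 10.57 in trunks 6, 7 and 8. In heat-exposed trunks 4, 2 and 9 the heme mean was 10.64, 10.34 and 10.37. Trunk 4, with an embryonic globin mean of 14.58, thus stood above trunks 7 and 8, against that order. None of these relations was tested, nor was the part of the marked cell types in the globin differences.

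Lists of genes around hemoglobin were read in trunks beside a background of 8.59% higher and 5.96% lower rows. Of 21 rows of the red cell membrane and cytosol, 1 was higher and 0 lower, with a median of 0.03. The called one was ank1 (ank1a), which codes for the ankyrin that ties spectrin to the membrane (0.56, adjusted p = 0.0425 in limma). The water channel gene aqp1a.1 differed by 0.47 (adjusted p = 0.0668) and the tropomodulin gene tmod1 by −0.49 (adjusted p = 0.112), neither passing.

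The heme list gave few calls, and the iron list gave 3 of 16 lower rows beside 5.96% of all rows. Of 24 rows of heme synthesis and breakdown, 1 was higher and 1 lower, with a median of −0.06. The lower one was slc25a38a, a mitochondrial carrier that brings in glycine for the first step of heme synthesis. Its signals of 9.32, 10.23 and 11.44 in heat-exposed trunks, against 11.45, 12.24 and 13 in control trunks, did not overlap. It fell by 1.98 (adjusted p = 0.000198 in limma), or 3.93-fold. The biliverdin reductase gene blvra rose by 0.57 (adjusted p = 0.0434), and the mitochondrial transporter gene abcb10 differed by 0.37 (adjusted p = 0.0931). Of 16 rows of iron and hemoglobin handling, 0 were higher and 3 lower: hpx (hpxa), coding for the heme-binding plasma protein hemopexin, at −1.22 (adjusted p = 0.0092), aco1, the cytosolic aconitase that doubles as iron regulatory protein, at −0.61 (adjusted p = 0.0392), and the ferritin heavy chain gene fth1b at −0.45 (adjusted p = 0.0408).

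Among regulators, 5 of 27 rows of erythroid transcription and erythropoietin signaling were higher and 0 lower, with a median of 0.10. The 3 with the smallest p were gata2a, a factor of blood progenitors and of endothelium (1.09, adjusted p = 0.00365 in limma), nfe2, a factor of the erythroid and thrombocyte lines (0.76, adjusted p = 0.00867), and lmo2, a partner of the blood and endothelial factor tal1 (0.58, adjusted p = 0.0125). In the same trunks 3 of 8 endothelial markers were higher, and gata1a, the main erythroid factor, was among the erythrocyte markers that did not pass. Of 25 rows for regulators of globin switching known from human and mouse, 1 was higher and 5 lower, with a median of 0.00. They included lin28a (lin28ab), an RNA-binding protein whose human relative raises fetal globin (−1.09, adjusted p = 0.0212), mbd3a, of the NuRD repressor complex (−0.55, adjusted p = 0.0131), and zbtb7a, whose product represses fetal globin in human red cells (−0.50, adjusted p = 0.0249). The row lin28a was dim, with medians of 6.16 in heat-exposed and 7.27 in control trunks. All 16 oocyte markers were lower in these trunks too, and their part in these values was not tested.

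Thyroid hormone and hypoxia were covered by lists of their own, as both are known to act on red cell development in fish or mammals. Of 19 rows of the thyroid hormone axis, 0 were higher and 2 lower, with a median of 0.01. The lower ones were dio2, the deiodinase that makes active hormone (−0.75, adjusted p = 0.0317 in limma), and klf9, a gene induced by thyroid hormone and by glucocorticoids (−1.03, adjusted p = 0.0366). The receptor gene thraa differed by −0.35 (adjusted p = 0.0897). Of 26 hypoxia response rows, 2 were higher and 0 lower, with a median of −0.03. These were slc2a1a, a glucose transporter (1.35, adjusted p = 0.0398), and epas1b, a hypoxia-inducible factor subunit (0.91, adjusted p = 0.0397), while ankrd37, a target of that factor in mammals, was at −0.71 (adjusted p = 0.0501). The row slc2a1a was dim in control trunks, at 5.49 to 6.78, against 5.36 to 9.33 in heat-exposed trunks.

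Rows whose pattern was most like that of the members were sought among 15727 rows with a gene symbol, over the 18 trunks after removal of each group's mean. For this search each of the 4 embryonic rows was first scaled to the same SD, unlike in the embryonic mean used above. Their scaled mean was followed most closely by and3 (r = 0.87), cyt1l (0.87), arglu1a (0.85), rab3c (0.85) and syt1b (0.84). hbba2 was followed most closely by rpl9 (r = 0.84), rccd1 (0.83), rpl22l1 (0.82), slmo2 (prelid3b, 0.81) and zgc:103499 (rlig1, 0.80). The 5 rows of each list were the highest of a long search and are given as a description. Among the rows most like the embryonic mean, rab3c and syt1b, at ranks 4 and 5, are genes of synaptic vesicles. They stood below and3, cyt1l and arglu1a, and no link to the neural markers was tested. No gene of the erythrocyte list was among these 10.

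In adult testes, 58 days after the end of the exposure, none of the 5 members passed at an adjusted p under 0.05 in limma. Over all rows the share was small, with 0.054% higher and 0.00953% lower in heat-exposed testes. The number of rows called was 20, while 3672 had an unadjusted p under 0.05. The signals of all 5 members, adult and embryonic, averaged higher in heat-exposed testes, by 0.10 to 0.93.

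hbba2 (zgc:92880) came nearest to the threshold, with 14.11, 14.42 and 14.64 as lowest, median and highest signal in heat-exposed testes, against 12.17, 13.44 and 14.51 in control testes. All 10 heat-exposed testes lay above the control mean and 3 lay above every control testis. The difference was 0.93 (SE 0.20, adjusted p = 0.0743 in limma), and control testis 5 carried the highest control value. Without that array the adjusted p was 0.0249 in limma, the only call among the 20 fits that left out 1 testis, which gave up to 0.139. Control testis 5 also had the highest erythrocyte marker mean of the control testes, at 9.87. hbae1 had 12.03, 12.58 and 13.16 in heat-exposed testes, against 11.19, 11.86 and 12.48 in control testes, a difference of 0.72 (SE 0.19, adjusted p = 0.146). hbbe1.1 averaged 12.88 ± 0.19 in heat-exposed and 12.53 ± 0.38 in control testes (SD, n = 10 each), a difference of 0.35 with an adjusted limma p of 0.347. hbae3 differed by 0.10 (adjusted p = 0.934) and hbbe2 by 0.16 (adjusted p = 0.738), with wide overlap. Thus hbae3, with the largest difference in trunks, had the smallest of the 5 members in testes.

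Of the other 7 globin rows that measure no member's gene, 1 passed in testes. This was si:ch211-5k11.2 (hbae1.2 or hbae1.3), with 12.05, 12.30 and 13.19 in heat-exposed testes, against 10.90, 11.46 and 11.90 in control testes. The groups did not overlap, which held for 0.0286% of all rows in this direction, and the difference was 0.99 (SE 0.17, adjusted p = 0.0359 in limma). The call was lost when any of 10 of the 20 testis arrays was left out, with adjusted p between 0.0238 and 0.072 over the 20, and the difference relative to the erythrocyte marker mean was 0.42 (adjusted p = 0.192). The adult beta row ba1 (hbba1) pointed the other way, with 10.93, 11.67 and 14.77 in heat-exposed testes, against 12.24, 14.49 and 15.19 in control testes. Its difference of −1.99 (SE 0.45) had an adjusted p of 0.0863, and of 0.0403 without heat-exposed testis 8, which alone among the heat-exposed testes stood near the control median. No other fit that left out 1 testis passed for ba1, with adjusted p up to 0.149 in limma. The row ba2, which matches ba1l or hbba1, did not share this direction, with a difference of 0.21 (adjusted p = 0.395 in limma). The hbaa2 row si:ch211-5k11.6 differed by 0.74 (adjusted p = 0.158) and hbbe3 by 0.80 (adjusted p = 0.24).

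Erythrocyte markers were also higher on average in heat-exposed testes, with a list mean of 9.34 ± 0.30 and a range of 8.84 to 9.77, against 8.77 ± 0.49 and 8.29 to 9.87 in control testes (SD, n = 10 each). None of the 8 markers passed, and their median difference was 0.70. Relative to that mean the members differed by 0.15 for hbae1, −0.47 for hbae3, −0.22 for hbbe1.1, −0.41 for hbbe2 and 0.36 for hbba2. None of the 5 passed on this scale, with adjusted p of 0.131 to 0.654 in limma. The scaling lowers the difference of every row by the same amount, and the median over all rows was 0.02 without it. The negative signs are therefore not particular to the members. Over the 10 control testes hbba2 moved with the marker mean (r = 0.87, rho = 0.95, adjusted permutation p = 0.00655 for r), and r was 0.71 without the 2 arrays farthest from the median (adjusted permutation p = 0.0521, n = 8), where it no longer passed. Over the 10 heat-exposed testes hbbe1.1 moved with hbba2 (r = 0.89, adjusted permutation p = 0.00655), with r = 0.82 and an adjusted permutation p of 0.102 without 2 arrays (n = 8). The relation of an embryonic with the adult globin thus had opposite signs in heat-exposed testes and heat-exposed trunks for this pair, and that difference was not tested.

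The balance of embryonic over adult globin lay between −3.36 and −2.43 in heat-exposed testes and between −3.77 and −1.72 in control testes, with overlap. By likeness over the 20 testes after removal of group means, the rows nearest to hbba2 were gata1a (r = 0.86), the main erythroid transcription factor, followed by nmt1b, fabp10b, acadsb and nupr1 (nupr1b) at 0.82 each. The rows nearest to the embryonic mean, taken from rows scaled to the same SD, were hsd17b8 (r = 0.83), gria4a (0.80), exosc6 (0.79), glra4b (0.78) and mycbp (0.76). No row was named for both ages.

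**Figure D4:**
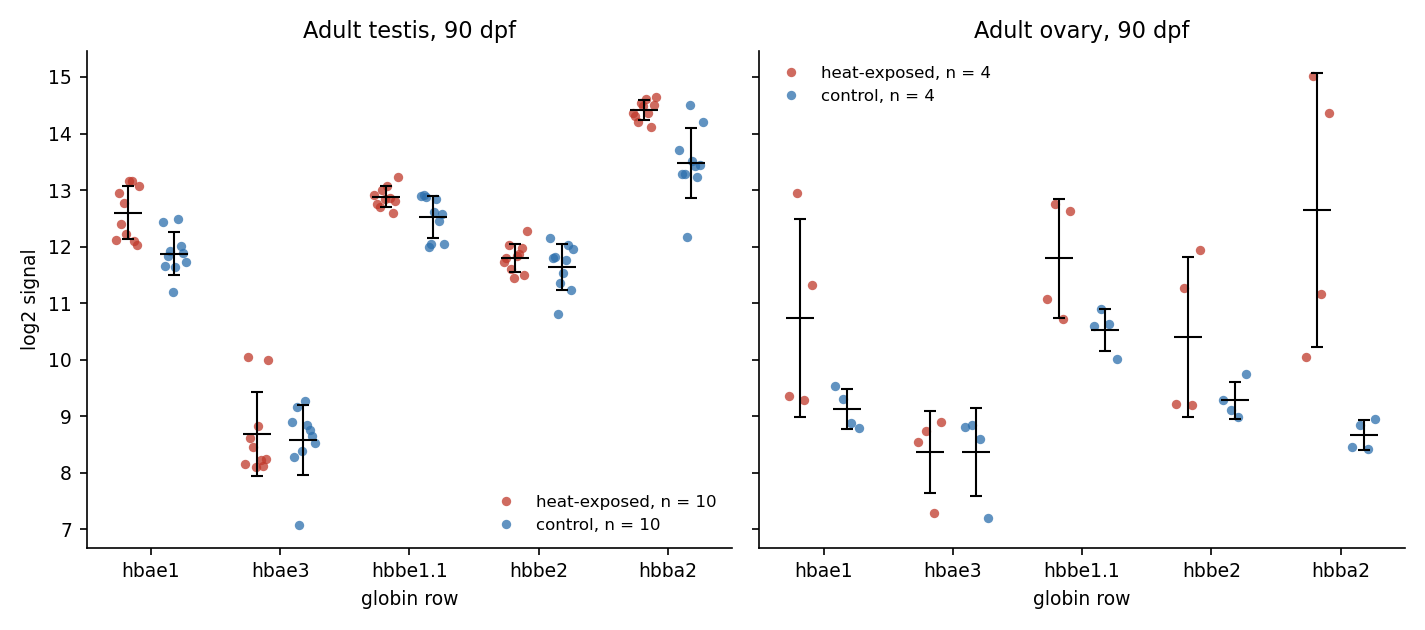
Log2 signal of the 5 globin rows in adult testes (left, 10 heat-exposed and 10 control arrays) and adult ovaries (right, 4 and 4 arrays) at 90 dpf, red for heat-exposed and blue for control. Dots are arrays, bars means and whiskers ± 1 SD. hbba2 runs between 14.11 and 14.64 in heat-exposed testes and between 10.04 and 15.01 in heat-exposed ovaries, with control ovaries at 8.41 to 8.95.

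In adult ovaries the adult globin hbba2 (zgc:92880) had 10.04, 15.01, 11.16 and 14.37 in heat-exposed ovaries 1 to 4, against 8.46, 8.85, 8.41 and 8.95 in control ovaries 1 to 4. All 4 heat-exposed ovaries lay above all control ovaries, as 2.61% of all rows did. The difference was 3.98 (SE 1.03), or 15.7-fold, and did not pass (adjusted p = 0.434 in limma). None of the 31475 rows (0%) passed in ovaries, where the smallest adjusted p was 0.106 and 3334 rows had an unadjusted p under 0.05. Heat-exposed ovaries 2 and 4 had the lowest oocyte marker means of the 8 ovaries, 12.41 and 12.82, with at least 13.52 in each of the others. Without them the difference of hbba2 was 1.93 (adjusted p = 0.428).

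The embryonic genes showed a similar split between the heat-exposed ovaries. hbae1 had 9.36, 12.95, 9.29 and 11.32 in heat-exposed ovaries, against 9.54, 9.31, 8.88 and 8.79 in control ovaries, and hbbe1.1 had 11.08, 12.76, 10.71 and 12.63, against 10.59, 10.89, 10.63 and 10.01. hbbe2 had 9.22, 11.27, 9.19 and 11.94 in heat-exposed ovaries, against 9.28, 9.11, 8.98 and 9.74 in control ovaries. For these 3 genes ovaries 2 and 4 stood high, while ovaries 1 and 3 lay near the control arrays. The differences were 1.60, 1.27 and 1.13, none passing. Without ovaries 2 and 4 they were 0.19 for hbae1, 0.36 for hbbe1.1 and −0.07 for hbbe2. hbae3 had 8.54, 8.73, 7.29 and 8.90 in heat-exposed ovaries, against 8.80, 8.85, 8.60 and 7.20 in control ovaries, and did not differ in mean (0.00, SE 0.50, and −0.45 without ovaries 2 and 4). The erythrocyte marker mean followed the same split, with 7.63, 10.38, 7.71 and 9.66 in heat-exposed ovaries, against 7.33, 7.37, 7.60 and 7.34 in control ovaries. In heat-exposed ovaries 1 and 3 the marker mean lay within 0.38 of the control arrays. Both the marker mean and hbba2 lay above all control ovaries there.

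Of the other globin rows, hbaa2 (si:ch211-5k11.6) had 9.92, 15.12, 11.67 and 14.85 in heat-exposed ovaries, against 9.26, 9.03, 8.76 and 10.01 in control ovaries. hbae4 (zgc:163057) had 7.49, 13.36, 8.76 and 13.26, against 7.43, 7.76, 6.98 and 7.85. Both repeat the high values of heat-exposed ovaries 2 and 4, and their differences of 3.62 and 3.21 did not pass. Without those ovaries the differences were 1.53 and 0.62.

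**Figure D5:**
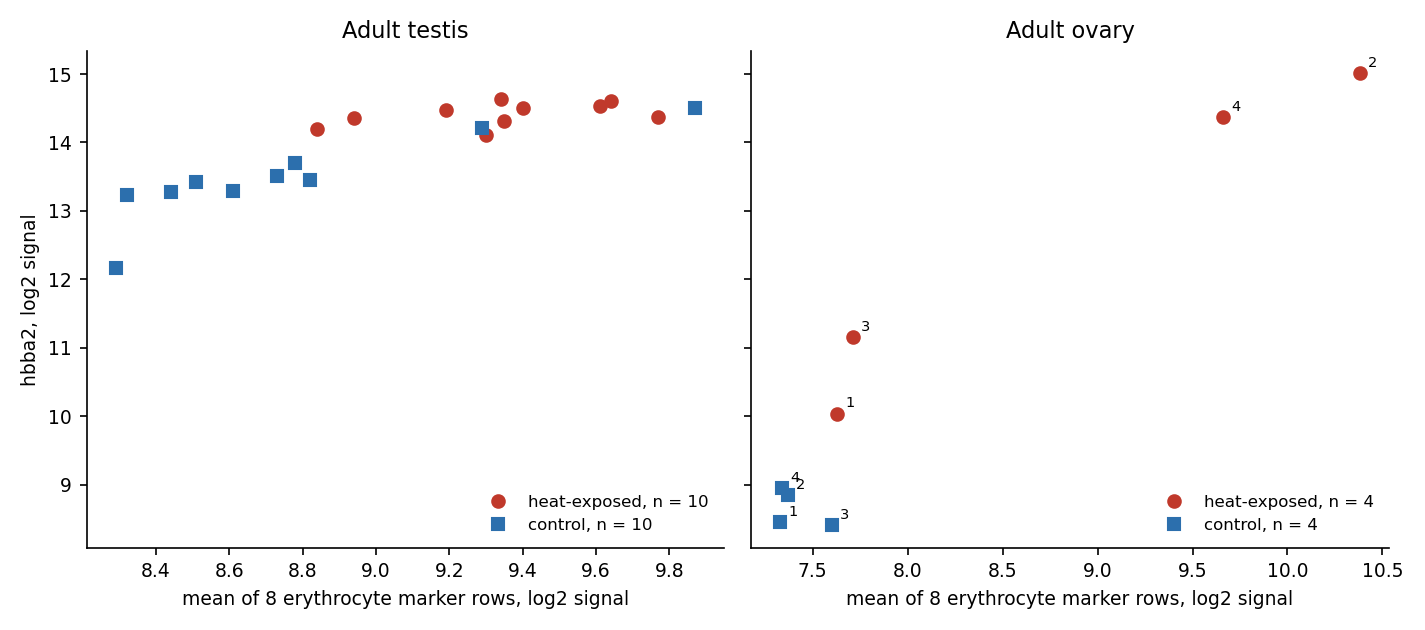
Log2 signal of hbba2 against the mean log2 signal of the 8 erythrocyte marker rows, 1 point per array, in adult testes (left) and adult ovaries (right, with replicate numbers), circles for heat-exposed and squares for control. In ovaries the marker mean is 10.38 and 9.66 in heat-exposed arrays 2 and 4. It is 7.63 and 7.71 in heat-exposed arrays 1 and 3 and at most 7.60 in control arrays. hbba2 is 10.04 and 11.16 in heat-exposed arrays 1 and 3 and at most 8.95 in control arrays.

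Whether the heat difference itself differed between the gonads was tested as testis minus ovary in 1 limma fit of the 28 adult arrays. Over all rows 0.721% were lower in this contrast. Of the members only hbba2 (zgc:92880) passed, at −3.04 (SE 0.76, adjusted p = 0.0453), its heat difference being smaller in testes than in ovaries. The call did not hold without heat-exposed ovaries 2 and 4 (−1.0, adjusted p = 0.63), nor in 6 of the 8 fits that left out 1 ovary, which gave −3.91 to −2.26. hbae1 (−0.88, adjusted p = 0.403), hbbe1.1 (−0.92, adjusted p = 0.182), hbbe2 (−0.97, adjusted p = 0.248) and hbae3 (0.09, adjusted p = 0.95) did not pass. Trunks were not set against gonads in a test, as they differ in age, tissue and array distribution.

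Control gonads of both sexes were compared in the same fit, away from heat. Of all rows, 28.3% were higher in control testes than in control ovaries at an adjusted p under 0.05, and 4 of the 5 members were. hbba2 (zgc:92880) averaged 13.48 ± 0.63 (SD, n = 10) in control testes and 8.67 ± 0.27 (SD, n = 4) in control ovaries, which is 28-fold higher (4.81, adjusted p = 2.28e-08 in limma). hbae1 was 6.73-fold higher (2.75, adjusted p = 2.78e-06), hbbe2 5.15-fold (2.36, adjusted p = 1.34e-06) and hbbe1.1 3.99-fold (2.0, adjusted p = 7.97e-07). For these 4 genes no control testis overlapped a control ovary, as for 19% of all rows in this direction. hbae3 was the exception, at 8.58 ± 0.62 (SD, n = 10) in control testes and 8.36 ± 0.78 (SD, n = 4) in control ovaries (0.22, adjusted p = 0.663). All 7 other globin rows were higher in control testes, among them hbaa2 (si:ch211-5k11.6, 4.63, adjusted p = 8.35e-08) and hbae4 (zgc:163057, 3.90, adjusted p = 2.48e-05). Of the erythrocyte markers 4 of 8 were higher, with a median of 1.07. Relative to the erythrocyte marker mean, hbba2 was 3.45, hbae1 1.39 and hbbe2 1.01 higher in control testes, hbbe1.1 no longer passed (0.64, adjusted p = 0.122) and hbae3 was lower (−1.14, adjusted p = 0.0366). That marker mean was 8.77 in control testes and 7.41 in control ovaries, so the scaling lowers every row by the same amount. On this scale 21851 of the 31475 rows were called either way, and the call of hbae3 is not particular to it.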

How the data were processed

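Values are the authors' deposited log2 signals, 1 per row and array. The submitters' processing notes name RMA, which subtracts background, applies quantile normalization and combines the probes of a row. The log base was taken from the range of 3.76 to 15.89. The sources used here do not give the array's annotation, the sets of arrays normalized together or any slide or scan batch. RNA was amplified before labelling per the labels' protocols, which can compress or stretch differences. The series' design text gives 10 juveniles per group, and 8 control trunks were analysed here. No 2 arrays held identical values. Upper quartiles were 10.90 to 10.95 in trunks and 10.64 to 10.72 in gonads, so levels were compared within an age only. The number of arrays limits the precision.

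The members and lists were chosen with earlier results of these data known. All 31475 rows of each comparison were fitted with limma 3.58.1 (lmFit, eBayes, R 4.3.3), two-sided, with Benjamini-Hochberg adjustment over all rows and a threshold of 0.05. The script was tested on simulated data. Named are all globin rows, the 3 rows with the smallest trunk p in each pathway list, and the 5 rows nearest to the members. Members are matched by row name, and current symbols come from RefSeq. hemgn of the erythrocyte list had no row. Relations used two-sided permutation, exact below 10 arrays and with 100000 resamples at 10. Alternatives were median centring, leaving out dim rows, a replicate block, 1 fit of 46 arrays, scaling to erythrocyte markers and arrays left out. Same-numbered arrays of the 2 temperature groups had deviations that correlated at −0.08 to 0.13 in trunks, −0.04 to 0.15 in testes and 0.02 to 0.15 in ovaries.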

Additional observations from a re-analysis of the deposited data

Results flagged for a closer look

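Single arrays that stood apart from the rest of their group by Dixon's criterion numbered 8 among the 78 groups tested over 13 globin rows, where chance alone gives about 1 in 20. For hbae3 these were control testis 4, the lowest at 7.07, and control ovary 4, the lowest at 7.20. For si:ch211-5k11.6 (hbaa2) they were heat-exposed testis 3, the lowest at 13.99, and control testis 4, the lowest at 12.52. For ba1 (hbba1) they were heat-exposed testis 8, the highest at 14.77, and control trunk 4, the lowest at 13.05. For ba2 they were heat-exposed trunk 1, the lowest at 14.30, and heat-exposed testis 8, the lowest at 14.72. Control testis 4 and heat-exposed testis 8 each appeared for more than 1 row. The 78 groups share arrays and related rows and are not independent, so no excess over chance is read from the count.

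The heat difference of hbba2 (zgc:92880) differed between adult testis and adult ovary by −3.04 in the interaction contrast of limma (adjusted p = 0.0453). The call was lost without heat-exposed ovaries 2 and 4 (−1.0, adjusted p = 0.63), in 6 of 8 fits that left out 1 ovary, and relative to the erythrocyte marker mean (−2.18, adjusted p = 0.0763).

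Opposite directions at different ages were seen for hbba2 and hbaa2. The row ba1 (hbba1), also an adult globin, differed by −0.48 in trunks, −1.99 in testes and 1.28 in ovaries. The row ba2 (ba1l or hbba1) differed by −0.08, 0.21 and 1.16 in the same order. For hbba2 every heat-exposed trunk lay below the control mean, while every heat-exposed testis and every heat-exposed ovary lay above it. The heat difference in trunks minus that in testes was −3.80, and minus that in ovaries −6.85, or −4.8 without heat-exposed ovaries 2 and 4. For si:ch211-5k11.6 (hbaa2) the same pattern gave −3.10 against testes and −5.98 against ovaries, or −3.89 without heat-exposed ovaries 2 and 4. The erythrocyte marker list had a median heat difference of −0.06 in trunks, 0.70 in testes and 1.46 in ovaries. These differences between ages were not tested.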

How the results depend on the processing

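The trunk differences of the members kept their direction in all 25 alternatives, with 2.85 to 3.2 for hbae1, 4.00 to 5.43 for hbae3, 2.47 to 2.92 for hbbe1.1, 3.42 to 3.76 for hbbe2 and −3.09 to −2.59 for hbba2. As the rule used this contrast, these ranges are a description and no support is read from them. Of the 25, 18 left out 1 array each, and some settings, such as leaving out dim rows, cannot change a difference of means. Without rows below the median row, called rows numbered 3027 in trunks (4579 in the full table), 65 in testes (20), 11655 between control gonads (18199) and 598 in the interaction (380), and hbba2 passed in testes (0.93, adjusted p = 0.0384). Relative to the erythrocyte marker mean they were 2669 in trunks, 6546 in testes, 3 in ovaries (0), 21851 between control gonads and 22 in the interaction. This scaling shifts all rows of a contrast by the same amount. On that scale hbae3 (−1.14), xgb (−1.25) and si:xx-by187g17.1 (−0.61) turned lower in control testes than in control ovaries, hbbe1.1 (0.64) no longer passed there, and the interaction of hbba2 was −2.18 (adjusted p = 0.0763). Median centring left 7 rows called in testes. A single fit of 46 arrays called 102 in testes and 4869 in ovaries, among them hbba2 (3.98, adjusted p = 0.000174) and hbae1 (1.60, adjusted p = 0.0434). Without heat-exposed trunks 1, 2 and 10 the trunk count was 2863, and without heat-exposed ovaries 2 and 4 it was 8 in ovaries and 36 in the interaction, where hbba2 was at −1.0. Without 2 arrays each, 1 of the 8 called relations passed. Leaving out single arrays gave 3293 to 4919 called rows in trunks, 1 to 57 in testes, 0 to 5 in ovaries and 48 to 4817 in the interaction. Over these fits hbba2 ran from 0.79 to 1.05 in testes, and in the interaction from −3.91 to −2.26. The interaction ran from −1.28 to −0.59 for hbbe1.1, which passed without heat-exposed ovary 3, and from −1.37 to −0.45 for hbbe2, which passed without heat-exposed ovary 1 or 3.

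The replicate numbers do not pair the samples. With the number as a replicate block, 3209 rows passed in trunks, 3 in testes and 0 in ovaries, hbba2 in testes stayed at 0.93, and si:ch211-5k11.2 in testes had an adjusted p of 0.0961.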
